A study of Homo sapiens with 14 samples.

Results

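The late window of FOXA1 loss was read by setting cells at 24 h of induced FOXA1 degradation directly against the same cells at 1 h. It takes in 4 of the 14 libraries of the series, 2 at 24 h and 2 at 1 h, chosen by the time in their labels. Expression was measured by RNA sequencing of total RNA from 22Rv1, an established human prostate cancer line. Both groups have the genotype written as WT, FOXA1_dTAG: FOXA1 is fused to a degradation tag, and a small molecule that binds the tag sends the fusion protein for breakdown. The 2 libraries at 0 h of the same cells entered only 1 alternative fit, and their levels are given only for reading the time course. The remaining libraries are 2 with a hairpin against FOXA1 (shFOXA1), 2 with a control hairpin (shCtrl), and 4 in the tagged background labelled R219S or WT, 2 of each.

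Several limits of the model bear on every value below. The labels name dTAG or DMSO for the tagged cells. They list neither a group kept in DMSO for 24 h nor untagged cells exposed to the degrader, so FOXA1 loss, exposure to the compound and time in culture cannot be told apart. They do not say whether the tagged line is 1 clone, or whether the 2 libraries of a group came from separate cultures, so p-values reflect no more than the spread among these 4 libraries. For the R219S and WT libraries they do not say whether the degrader was given. The shCtrl titles write 22Rv2 where their other labels write 22Rv1.

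FOXA1 is a forkhead pioneer factor, a protein able to bind its sites in closed chromatin and open them for other factors. In luminal prostate cells it is known to shape the response of genes to androgens, aiding some and restraining others. The study's title links pioneer factors with entry of cohesin and its loader NIPBL into chromatin. Setting 24 h against 1 h asks what changed after the first hour, and it keeps the high levels of immediate early genes at 0 h out of the comparison.

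The change between 1 h and 24 h was broad. Of 19457 genes tested, 4287 were higher at 24 h and 5017 were lower, which is 47.8% of all genes tested (22.0% higher and 25.8% lower). Counts of list members below are to be read beside these shares, and a count near them marks nothing particular about a list. A gene is called here at a Benjamini-Hochberg adjusted p under 0.05 in edgeR's quasi-likelihood test, and all adjusted p-values below come from that test unless another tool is named. A change of at least 2-fold was reached by 622 genes that rose (3.20%) and 758 that fell (3.90%). The median log2 fold change over all genes was -0.00017, and the 5th and 95th percentiles were -0.92 and 0.89. Values of the 2 groups of libraries did not overlap for 71.7% of the genes, so lack of overlap alone marks no gene. Protein-coding genes were called lower more often (32.4% of 14124) than higher (24.1%). For long noncoding genes the split was the other way, with 16.6% of 2975 higher and 8.44% lower. The balance of directions over all genes moved with the scaling. Of all calls 46.1% were higher here, and 54.1% with upper-quartile scaling factors.

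Library totals were 32.1 and 32.2 M counts at 24 h and 34.2 and 34.0 M counts at 1 h. Within each pair the counts varied beyond Poisson counting, with chi-square per degree of freedom of 3.04 at 24 h and 2.04 at 1 h. Levels are in CPM, a gene's counts scaled to a common library total by TMM over these 4 libraries, and log2 fold changes are 24 h over 1 h with an approximate standard error, n = 2 libraries per group. CPM is not divided by gene length, so levels are compared between times for a gene and not between genes.

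**Figure D1:**
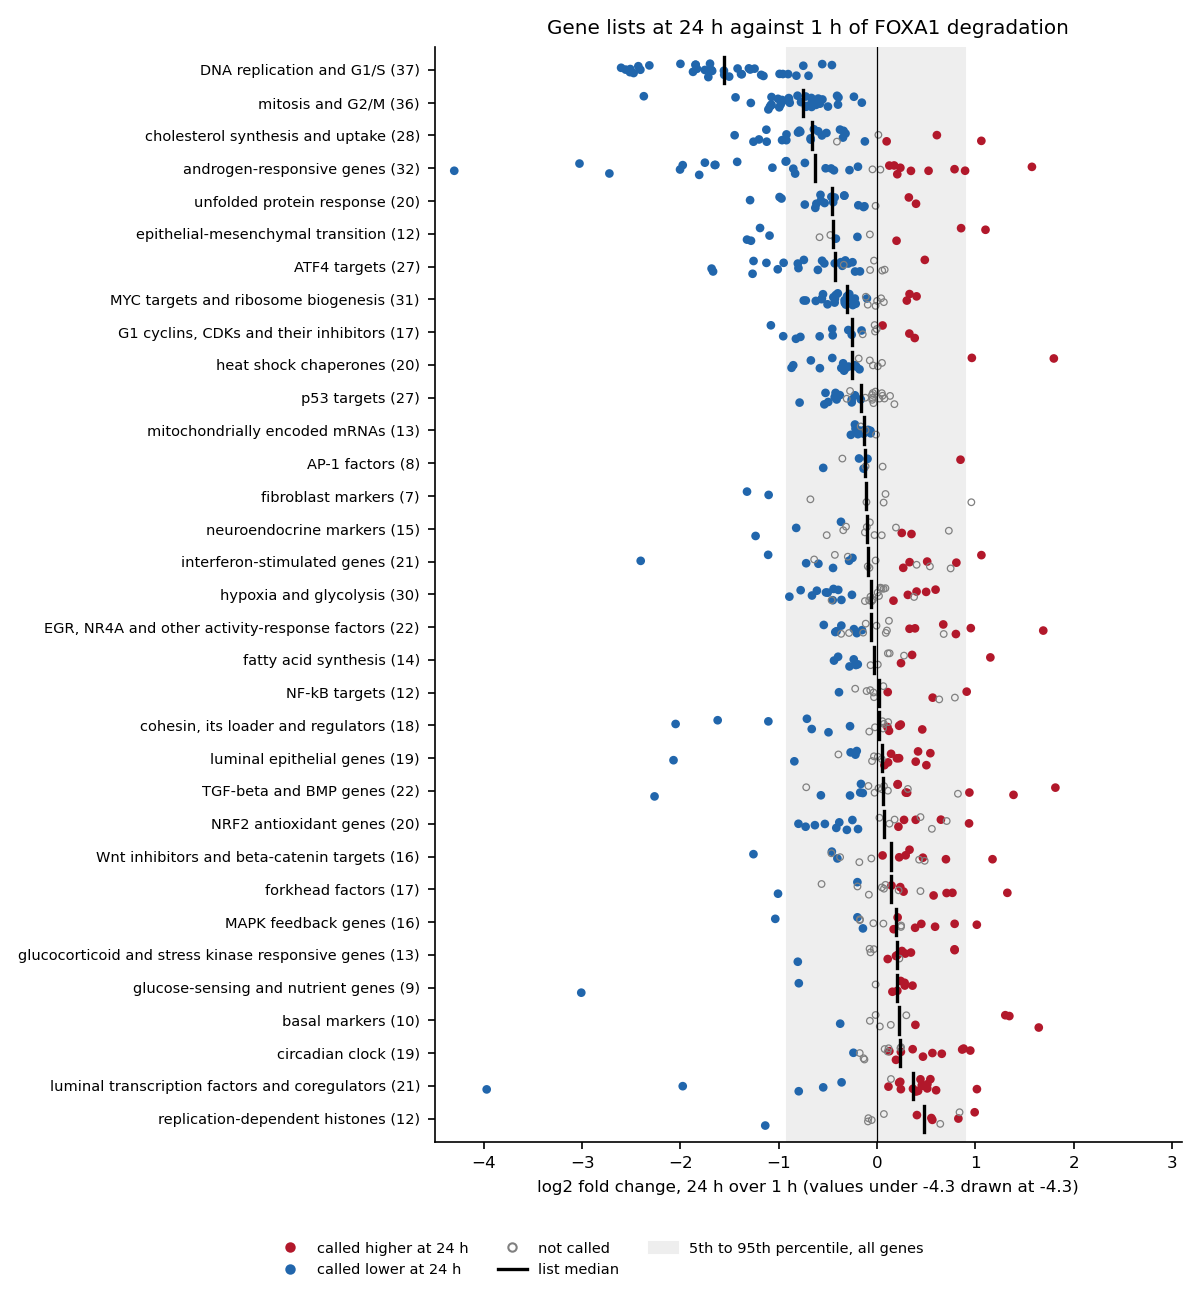
Each point is 1 tested gene of a list, and the x axis gives its log2 fold change, 24 h over 1 h; filled points passed the test. The grey band spans the 5th to 95th percentile of all 19457 genes, -0.92 to 0.89, and values under -4.3 are drawn at the left edge. The replication, mitosis, cholesterol, unfolded protein response and ATF4 lists lie mostly left of 0, and the luminal transcription factors and clock genes mostly right of it.

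The deepest falls were in genes that lost almost all their reads. TRGC1, annotated as a constant segment of the T cell receptor gamma locus, had 0.215 and 0.0917 CPM at 24 h, against 43.1 and 41.2 CPM at 1 h (log2 -8.07 ± 0.17, adjusted p = 8.15e-40). Its locus overlaps TARP, a transcript known from prostate cells that has no row of its own here, so these reads cannot be assigned between the 2 names. UGT2B15, an enzyme that attaches glucuronic acid to androgens, had 2 and 1 counts at 24 h, against 322 and 335 at 1 h. The 1 h to 24 h ratio of its depth-scaled counts was 213, with an exact 95% interval of 72.5 to 1035 that covers counting error only. The related UGT2B10 had 0 and 1 counts at 24 h, against 76 and 78 at 1 h, and a ratio of 149.7 (26.5 to 5952). UGT2B11 had 1 and 0 counts at 24 h, against 21 and 23 at 1 h, and UGT2B28 had 1 and 0 counts at 24 h, against 14 and 11 at 1 h. The UGT2B genes are close copies of one another, so reads may have been split between them. UGT2B11 and UGT2B28 were chosen after their values were seen. TRGC1 and the 4 UGT2B genes named here passed the filter on low counts through the 1 h libraries alone, so they had to come out lower.

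2 other genes were left with a single count at 24 h. APOA5, an apolipoprotein of triglyceride transport, had 0 and 1 counts at 24 h, against 95 and 113 at 1 h (ratio 202, interval 35.9 to 8025). RNLS, which encodes the flavoprotein renalase, had 0 and 1 counts at 24 h, against 78 and 94 at 1 h (ratio 167, interval 29.6 to 6643). IGF1, the growth factor that signals through the IGF1 receptor, had 0.891 and 0.642 CPM at 24 h, against 17.3 and 18.9 CPM at 1 h (log2 -4.56 ± 0.16). PTPRB, a receptor tyrosine phosphatase, had 3.53 and 3.73 CPM at 24 h, against 62.2 and 59.5 CPM at 1 h (log2 -4.06 ± 0.085). The class II antigen presentation genes HLA-DQB1 and HLA-DQB2, which are near copies of each other, fell by 4.00 ± 0.20 and 4.67 ± 0.30 on the log2 scale. AOX1, an aldehyde oxidase, fell by 4.71 ± 0.30, and GABRB2, a GABA receptor subunit, by 3.45 ± 0.12. APOA5, RNLS and HLA-DQB2 also passed the filter on low counts through the 1 h libraries alone, so they had to come out lower. AOX1, with 11 and 3 counts at 24 h, could not have passed it without the 1 h libraries. The RNA-binding gene KHDRBS2, the surfactant gene SFTPA2, which has a near-identical neighbour, and the zinc finger gene ZNF385B fell by 3.45, 3.41 and 3.31.

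The largest fall of a lineage transcription factor was that of SPDEF, an ETS factor of luminal and secretory epithelium. It had 2.31 and 1.83 CPM at 24 h, against 31.9 and 33.1 CPM at 1 h, a log2 fold change of -3.97 ± 0.11 (adjusted p = 6.8e-34). Both 24 h libraries lay far under both 1 h libraries, and the fitted level was 15.7 times lower. The 250 bases before the SPDEF and UGT2B15 starts are shown because each holds letters of the forkhead core. They come from RefSeq on GRCh38.p14, at chr6:34556330-34556579 and chr4:68670653-68670902, both on the minus strand and printed 5′ to 3′ along the gene. Capitals mark TATTTAC or TGTTTAC on either strand.
SPDEF: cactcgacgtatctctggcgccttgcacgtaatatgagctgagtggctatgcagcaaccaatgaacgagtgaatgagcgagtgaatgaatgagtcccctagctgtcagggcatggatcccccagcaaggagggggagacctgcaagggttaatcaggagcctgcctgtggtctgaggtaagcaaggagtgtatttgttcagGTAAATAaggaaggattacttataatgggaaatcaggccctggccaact
UGT2B15: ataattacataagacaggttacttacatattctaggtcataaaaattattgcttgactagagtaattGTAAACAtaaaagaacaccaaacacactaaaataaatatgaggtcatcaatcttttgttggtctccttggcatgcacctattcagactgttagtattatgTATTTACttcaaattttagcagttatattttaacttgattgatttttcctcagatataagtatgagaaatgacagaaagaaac
Over a window of 250 bases before and 50 after the start, 28 of 512 promoters of genes at least 2-fold lower held such a match (5.47%), as did 17 of 299 of genes at least 2-fold higher (5.69%). Among the 12487 tested genes with a promoter the share was 3.82%, and it was 6.05% of all 27305 promoters given. A match is only a run of letters, and binding was not measured in these libraries.

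By adjusted p the leading fall was SMOC1, a secreted matricellular protein that binds calcium and tunes BMP signals. SMOC1 had 156 and 163 CPM at 24 h, against 832 and 850.2 CPM at 1 h (log2 -2.40 ± 0.031, adjusted p = 5.53e-49). CLU, the extracellular chaperone clusterin, had 545 and 543 CPM at 24 h, against 1719 and 1687 CPM at 1 h (log2 -1.65 ± 0.026). RRM2, the small subunit of ribonucleotide reductase, had 36.4 and 37.8 CPM at 24 h, against 205 and 194 CPM at 1 h (log2 -2.43 ± 0.043). The lipid phosphatase PLPP1 and the oxysterol-binding protein gene OSBPL8 also led by adjusted p, with log2 fold changes of -2.0 ± 0.038 and -1.60 ± 0.033.

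The rises were smaller in fold, up to a log2 fold change of 3.25. NRCAM, a neuronal cell adhesion molecule, had 162 and 172 CPM at 24 h, against 22.5 and 20.6 CPM at 1 h (log2 2.96 ± 0.050, adjusted p = 5.42e-44). ENC1, an actin-binding Kelch protein, had 285 and 299.8 CPM at 24 h, against 48.3 and 49.0 CPM at 1 h (log2 2.59 ± 0.039, adjusted p = 9.64e-46). In both genes each 24 h library lay far above each 1 h library. TSPAN18, a tetraspanin, had 13.5 and 14.8 CPM at 24 h, against 1.34 and 1.79 CPM at 1 h (log2 3.17 ± 0.15). EFNB2, the ligand ephrin-B2, had 228 and 222 CPM at 24 h, against 48.7 and 46.9 CPM at 1 h (log2 2.24 ± 0.040). SLIT2, a secreted axon guidance cue, rose by 2.28 ± 0.21, the kinase PAK3 by 2.50 ± 0.097 and the class IIa deacetylase HDAC9 by 2.45 ± 0.17. SCGN, a calcium-binding protein of endocrine cells, had 211 and 208 CPM at 24 h, against 43.1 and 40.9 CPM at 1 h (log2 2.32 ± 0.042).

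Other named rises were less alike. HS3ST3B1, a heparan sulfate sulfotransferase, had the largest log2 fold change, 3.25 ± 0.39, at low levels of 1.72 and 2.60 CPM at 24 h, against 0.179 and 0.268 CPM at 1 h. It passed the filter on low counts through the 24 h libraries alone, so it had to come out higher. HSD3B1, a steroid dehydrogenase on the route to androgens whose reads could be shared with a pseudogene copy, had 2.67 and 2.81 CPM at 24 h, against 0.357 and 0.745 CPM at 1 h. LPL, lipoprotein lipase, had 1903 and 1950.0 CPM at 24 h, against 661 and 668 CPM at 1 h (log2 1.54 ± 0.026). CPAMD8, a protein of the alpha-2-macroglobulin family, rose by 2.18 ± 0.043, and the noncoding SILC1 and FIGNL2-DT and the pseudogene TPSP2 by 2.40, 2.25 and 2.19. YAP1, the transcriptional effector of the Hippo pathway, had 197 and 203 CPM at 24 h, against 90.6 and 87.2 CPM at 1 h (log2 1.17 ± 0.038).

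**Figure D2:**
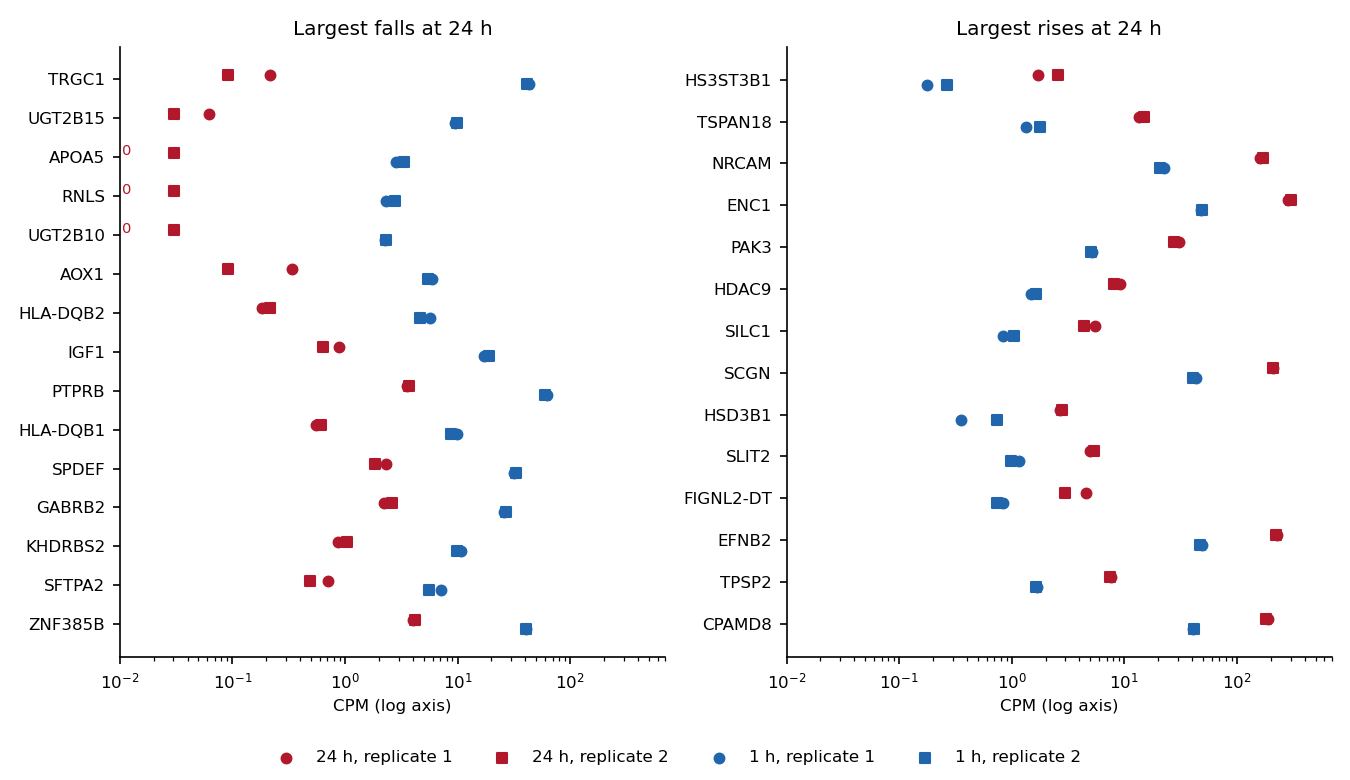
Levels of the largest falls and rises in each library, in CPM on a log axis, with 24 h and 1 h points for each gene; a mark "0" stands for a library without counts. In every gene shown the 24 h points lie on 1 side of the 1 h points.

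FOXA1's own mRNA did not fall between the 2 times. It had 204 and 196 CPM at 24 h, against 171 and 169 CPM at 1 h, a rise of 0.24 ± 0.035 on the log2 scale (adjusted p = 9.06e-08). The system acts on the protein, so the mRNA does not measure loss of FOXA1, and whether the reads came from the tagged copy was not resolved. The paralogs FOXA2 and FOXA3 stayed near the counting floor, with 1 and 0 counts of FOXA2 at 24 h, against 0 and 0 at 1 h, and 5 and 1 counts of FOXA3 at 24 h, against 6 and 3 at 1 h. Among 17 forkhead genes tested, 7 rose and 2 fell (median log2 0.15). These are 41.2% and 11.8%, where 22.0% of all genes tested were higher and 25.8% lower. FOXO1, a factor restrained by insulin and AKT signalling, had 37.5 and 42.0 CPM at 24 h, against 15.7 and 16.0 CPM at 1 h (log2 1.32 ± 0.072). FOXO3, FOXO4 and FOXN3 rose by 0.57, 0.77 and 0.71. FOXM1, a factor of mitotic gene transcription, had 35.6 and 34.7 CPM at 24 h, against 67.7 and 73.5 CPM at 1 h (log2 -1.01 ± 0.052). The other fall, of FOXN2, lost its call when 24 h replicate 1 (adjusted p = 0.19), 1 h replicate 1 (adjusted p = 0.164) or 1 h replicate 2 (adjusted p = 0.0846) was left out.

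Most luminal transcription factors and coregulators rose while most androgen-responsive genes fell. Of 21 luminal transcription factors and coregulators, 15 rose and 5 fell (median 0.36). GRHL2, a grainyhead factor of epithelial identity, had 606 and 601 CPM at 24 h, against 399 and 398 CPM at 1 h (log2 0.60 ± 0.028). The ETS factor EHF had 80.3 and 87.1 CPM at 24 h, against 41.0 and 41.9 CPM at 1 h (log2 1.01 ± 0.049). HOXB13, a prostate homeobox factor, rose by 0.36 ± 0.031. Against this direction stood, among others, SPDEF, GATA3 (log2 -0.80 ± 0.13), GRHL1 (-0.55 ± 0.066) and ELF3 (-0.36 ± 0.040).

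Among 32 androgen-responsive genes tested of 36 listed, 21 fell, 11 of them at least 2-fold, and 9 rose, with a median log2 fold change of -0.63. Both counts of falls include UGT2B15 (log2 -7.62), which passed the filter on low counts through the 1 h libraries alone and had to come out lower. The summed level of the list was 4883 and 4876 CPM at 24 h, against 5639 and 5613 CPM at 1 h. STEAP2 and STEAP1, metal reductase family members of the prostate cell surface, fell by 1.64 ± 0.035 and 1.75 ± 0.054. STEAP2 had 102 and 102 CPM at 24 h, against 325 and 313 CPM at 1 h. SORD, the sorbitol dehydrogenase, had 24.2 and 23.6 CPM at 24 h, against 82.1 and 85.4 CPM at 1 h (log2 -1.81 ± 0.053). These 3 genes lay 3.13 to 3.50 times lower at 24 h, with no overlap between the groups. MAF, a bZIP transcription factor, had 26.7 and 28.0 CPM at 24 h, against 87.8 and 84.1 CPM at 1 h (log2 -1.65 ± 0.052). The nicotinic receptor subunit CHRNA2 fell by 2.72 ± 0.12, ADAM7 by 3.03 ± 0.46 and the luminal transporter gene SLC45A3 by 1.06 ± 0.099.

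KLK3 and TMPRSS2, well known androgen targets, were among those that rose. KLK3, which encodes prostate-specific antigen, had 183 and 179.7 CPM at 24 h, against 158 and 157 CPM at 1 h (log2 0.20 ± 0.035, adjusted p = 2.05e-06). TMPRSS2, a surface serine protease, had 48.2 and 46.5 CPM at 24 h, against 33.9 and 32.0 CPM at 1 h (log2 0.52 ± 0.058). The neighbouring kallikrein gene KLK2 fell to 356 and 351 CPM at 24 h, against 479 and 479 CPM at 1 h, a change of -0.44 ± 0.029. FKBP5, an androgen- and glucocorticoid-responsive co-chaperone, had 1239.5 and 1251 CPM at 24 h, against 979 and 984 CPM at 1 h (log2 0.34 ± 0.025). ZBTB16, a zinc finger repressor induced by steroid receptors, rose by 0.79 ± 0.047, and the retinal dehydrogenase gene ALDH1A3 by 1.57 ± 0.18.

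**Figure D3:**
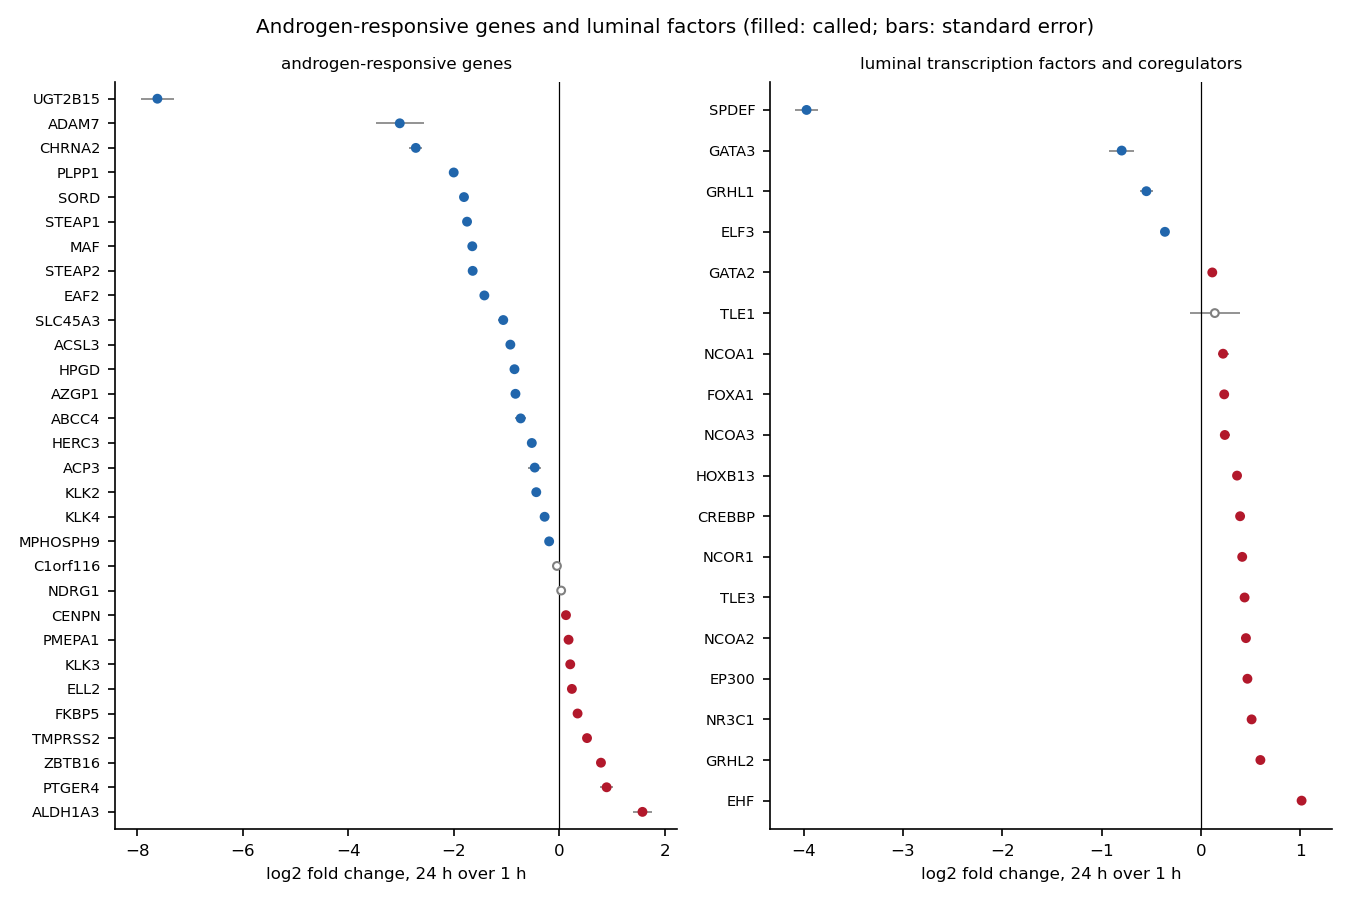
Log2 fold changes, 24 h over 1 h, with standard errors for androgen-responsive genes and for luminal factors and coregulators; filled points passed the test. Not every gene of the lists is drawn. Most androgen-responsive genes lie left of 0, while GRHL2 (0.60) and KLK3 (0.20) lie right of it and SPDEF (-3.97) far left.

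The labelled cell type was checked against its markers. The luminal keratins were present at both times and a little higher at 24 h: KRT8 had 2779 and 2672 CPM at 24 h, against 2342 and 2328 CPM at 1 h (log2 0.22 ± 0.024), and KRT19 rose by 0.20 ± 0.026. KRT18 had 387 and 371 CPM at 24 h, against 367 and 352 CPM at 1 h (log2 0.07, adjusted p = 0.041), a call lost without 24 h replicate 1 (adjusted p = 0.201) or without 1 h replicate 1 (0.0926) or 2 (0.527). The adhesion gene EPCAM had 7.47 and 9.38 CPM at 24 h, against 15 and 15.2 CPM at 1 h (log2 -0.84 ± 0.10). Over 19 luminal epithelial genes 9 rose and 5 fell (median 0.046), and without 1 h replicate 1 the rises numbered 4. In the main fit the shares of this list were 47.4% higher and 26.3% lower, against 22.0% and 25.8% over all genes tested. AGR2, a protein disulfide isomerase of secretory epithelium, had 9.65 and 8.92 CPM at 24 h, against 39.8 and 38.2 CPM at 1 h (log2 -2.07 ± 0.079), and the adhesion gene CDH1 fell by 0.22 ± 0.030.

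Leukocyte and endothelial markers were scarce, while basal and neuroendocrine markers were not. The list sums here are CPM of the plain library total, without TMM scaling. Of 12 leukocyte markers 10 stayed under 1 CPM in all 4 libraries, CD2, CD3D, MS4A1 and TYROBP were at 0, and the list summed to 3.15 and 2.85 CPM at 24 h, against 2.34 and 2.59 CPM at 1 h. PTPRC had 2 and 0 counts at 24 h, against 6 and 6 at 1 h. Of 9 endothelial markers 8 stayed under 1 CPM, ERG was at 0, PECAM1 matched no feature, and the sum was 8.16 and 6.11 CPM at 24 h, against 8.34 and 9.46 CPM at 1 h. The 12 fibroblast markers, with THY1 at 0 and 6 under 1 CPM, summed to 189 and 184 CPM at 24 h, against 412 and 413 CPM at 1 h, most of it FN1. FN1, the matrix protein fibronectin, had 153 and 149.9 CPM at 24 h, against 381 and 378 CPM at 1 h (log2 -1.32 ± 0.032). Of 10 basal markers tested, 4 rose and 1 fell (median 0.22), with TP63 and KRT17 at 0 in all 4 libraries, and the 15 markers listed summed to 201 and 198 CPM at 24 h, against 162 and 166 CPM at 1 h. KRT15, a keratin of basal and stem-like epithelium, had 45.3 and 45.8 CPM at 24 h, against 17.6 and 18.3 CPM at 1 h (log2 1.34 ± 0.066), and the laminin subunit gene LAMB3 rose by 1.30 ± 0.093. Of 15 neuroendocrine markers tested, 2 rose and 3 fell (13.3% and 20%, median -0.11), under the 22.0% and 25.8% over all genes tested. NEUROD1 and PCSK2 were at 0, and the vesicle gene SYT4 fell by 1.24 ± 0.043. The 22 neuroendocrine markers listed summed to 1733 and 1764 CPM at 24 h, against 1656 and 1670 CPM at 1 h, most of it PEG10 with 938 and 942 CPM at 24 h, against 742 and 734 CPM at 1 h, and VGF with 264 and 286 CPM at 24 h, against 349.7 and 360.1 CPM at 1 h (both TMM-scaled). Without 24 h replicate 1 a further basal marker passed as lower.

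The cell cycle genes fell together. All 37 DNA replication and G1/S genes that were tested, of 38 listed, were lower at 24 h, where 25.8% of all genes were, and 29 of them fell at least 2-fold. The median was -1.56 and the range ran from -2.60 for CDC45 to -0.46 for POLA1. The summed level was 1001 and 1014 CPM at 24 h, against 2642 and 2591 CPM at 1 h. In bulk RNA, fewer cells in S phase and less of these mRNAs per cell cannot be told apart. This count was 37 under every alternative setting tried.

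By role, the falls ran from licensing to nucleotide supply. CDC6, which loads the replicative helicase, had 10.0 and 9.56 CPM at 24 h, against 55.1 and 56.8 CPM at 1 h (log2 -2.51 ± 0.071). MCM2, a subunit of that helicase, had 34.3 and 32.3 CPM at 24 h, against 135 and 132 CPM at 1 h (log2 -2.0 ± 0.046). CDC45 and GINS2, which complete the active helicase, fell by 2.60 ± 0.091 and 2.51 ± 0.12, and its helper MCM10 by 2.56 ± 0.10. PCNA, the sliding clamp of DNA polymerases, had 50.7 and 49.4 CPM at 24 h, against 168 and 161 CPM at 1 h (log2 -1.72 ± 0.042). TK1, the thymidine kinase of the salvage route, fell by 2.48 ± 0.083. The E2F factors that drive this programme fell too: E2F1 had 13.1 and 15.5 CPM at 24 h, against 52.7 and 49.1 CPM at 1 h (log2 -1.83 ± 0.071), and E2F2 fell by 2.32 ± 0.082. CCNE1, the cyclin partner of CDK2 at S phase entry, fell by 0.99 ± 0.12.

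All 36 mitosis and G2/M genes tested were lower as well, 9 of them at least 2-fold, with a median of -0.75 against -1.56 for the replication genes. Their summed level was 1496 and 1502 CPM at 24 h, against 2492 and 2537 CPM at 1 h. CDK1, the kinase of mitotic entry, had 50.1 and 48.9 CPM at 24 h, against 137 and 132 CPM at 1 h (log2 -1.44 ± 0.043). MYBL2, a factor of the complex that switches on G2/M genes, had 8.02 and 7.30 CPM at 24 h, against 37.3 and 42.1 CPM at 1 h (log2 -2.37 ± 0.085). MKI67, the antigen of proliferating cells, fell less, with 84.6 and 79.1 CPM at 24 h, against 126 and 134 CPM at 1 h (log2 -0.67 ± 0.042). CCNB1, the cyclin partner of CDK1, likewise fell by 0.67 ± 0.044, the checkpoint kinase BUB1B by 1.08 ± 0.059 and the cytokinesis gene ANLN by 1.07 ± 0.050. The smallest fall was that of CDC25B (-0.16 ± 0.039), whose call was lost without 1 h replicate 2 (adjusted p = 0.0614).

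**Figure D4:**
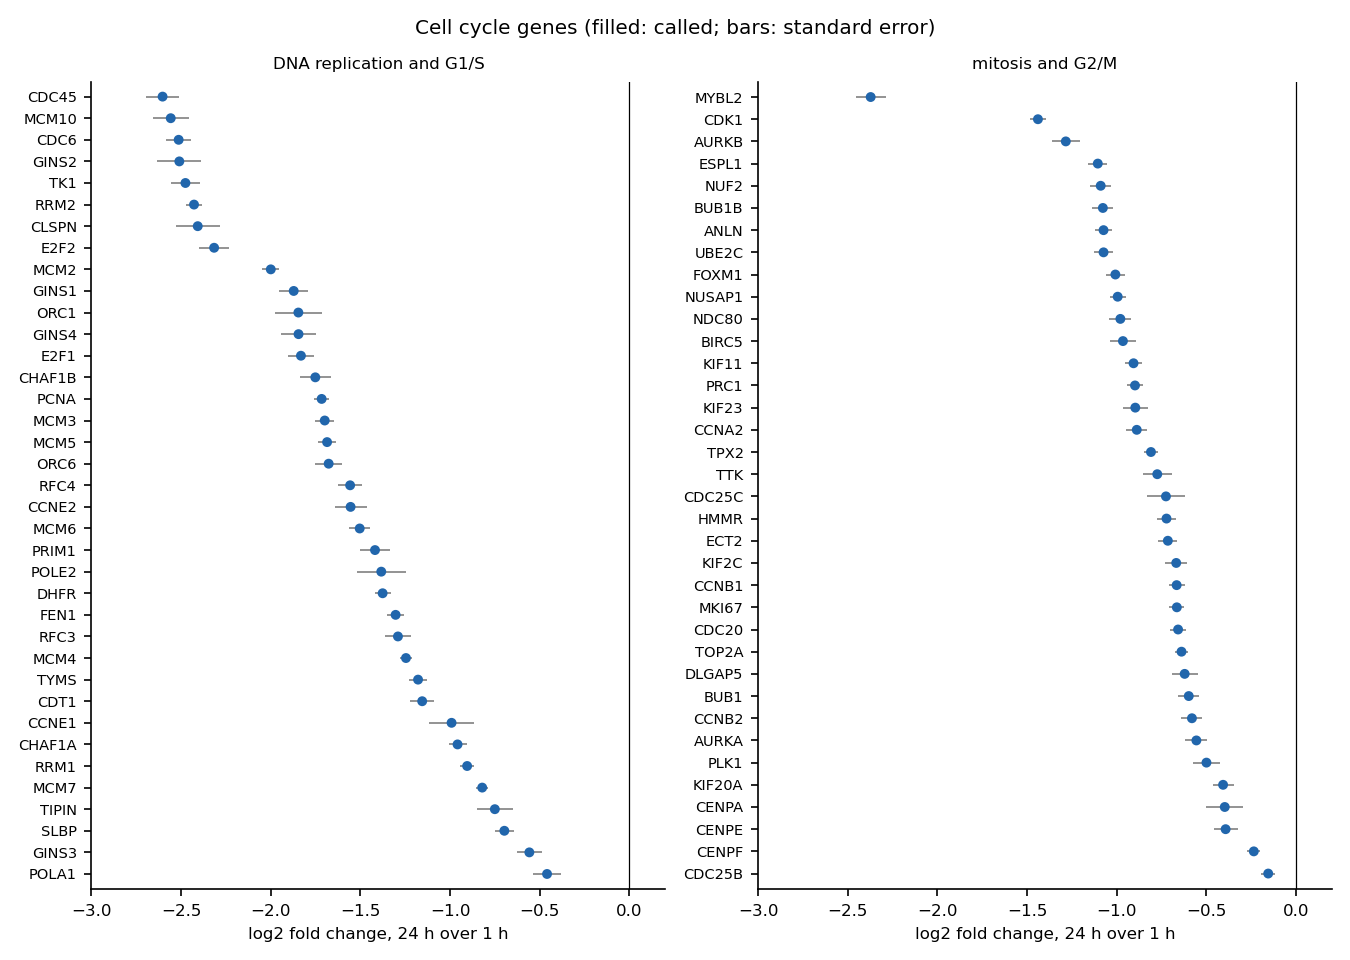
Log2 fold changes, 24 h over 1 h, with standard errors for the 37 replication and G1/S genes and the 36 mitosis and G2/M genes tested; filled points passed the test. Every point lies left of 0, from -2.60 for CDC45 to -0.46 for POLA1 on the left and from -2.37 for MYBL2 to -0.16 for CDC25B on the right.

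The promoters of these genes are shown because many promoters of both lists hold short runs known from the control of such genes. Replication genes are known to be driven through E2F sites, and G2/M genes through the CHR element, often with a CCAAT box. The sequences are the 250 bases before the start from RefSeq on GRCh38.p14, printed along the gene: GINS2 at chr16:85688955-85689204, E2F1 at chr20:33686386-33686635 and PCNA at chr20:5126623-5126872 on the minus strand, ESPL1 at chr12:53268049-53268298 and BUB1B at chr15:40160819-40161068 on the plus strand. Capitals mark the E2F letters GCGGGAAA or TTTGGCGC on either strand in GINS2, E2F1 and PCNA, the CHR letters TTTGAA in ESPL1 and BUB1B, and a CCAAT box, read as ATTGG on the opposite strand, in ESPL1.
GINS2: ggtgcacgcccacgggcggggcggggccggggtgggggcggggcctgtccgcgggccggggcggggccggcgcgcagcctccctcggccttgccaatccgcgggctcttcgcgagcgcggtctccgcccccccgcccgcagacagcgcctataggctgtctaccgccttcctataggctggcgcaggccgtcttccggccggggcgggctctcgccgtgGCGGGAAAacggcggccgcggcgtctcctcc
E2F1: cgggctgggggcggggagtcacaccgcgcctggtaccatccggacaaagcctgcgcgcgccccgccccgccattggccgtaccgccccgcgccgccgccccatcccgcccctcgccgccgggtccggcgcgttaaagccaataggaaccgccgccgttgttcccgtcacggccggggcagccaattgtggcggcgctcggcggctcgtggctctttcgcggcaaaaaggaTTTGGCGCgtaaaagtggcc
PCNA: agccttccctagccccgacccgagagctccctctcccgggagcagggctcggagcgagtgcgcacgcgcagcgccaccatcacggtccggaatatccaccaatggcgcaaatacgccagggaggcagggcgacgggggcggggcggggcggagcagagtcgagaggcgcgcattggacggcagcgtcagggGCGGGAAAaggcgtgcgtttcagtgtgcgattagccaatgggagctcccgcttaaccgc
ESPL1: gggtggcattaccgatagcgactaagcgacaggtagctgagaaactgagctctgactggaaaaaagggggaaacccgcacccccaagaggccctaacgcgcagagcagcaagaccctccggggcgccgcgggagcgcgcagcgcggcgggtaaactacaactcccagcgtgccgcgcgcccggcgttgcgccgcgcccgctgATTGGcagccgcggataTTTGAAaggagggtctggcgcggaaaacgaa
BUB1B: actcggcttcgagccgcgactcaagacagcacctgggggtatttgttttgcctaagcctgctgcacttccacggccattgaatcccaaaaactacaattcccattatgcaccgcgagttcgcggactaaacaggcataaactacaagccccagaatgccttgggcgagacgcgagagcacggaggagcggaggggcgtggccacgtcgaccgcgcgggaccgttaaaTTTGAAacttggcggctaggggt
Over the window of 300 bases, the E2F letters were in 16 of 32 replication promoters (50%), against 3.44% of promoters of all genes tested and 2.31% of all promoters given. TTTGAA was in 20 of 30 mitosis promoters (66.7%), against 9.84% and 15.4%. CCAAT was in 21 of 30 mitosis promoters (70%) and 19 of 32 replication promoters (59.4%), against 36.3% and 35.7%. Both strands were searched, and no motif contains another. The E2F letters were not among the motifs planned. Sterol and amino acid response letters were added too. They were in 1 of 20 cholesterol promoters (5%) and 2 of 22 ATF4 target promoters (9.09%), against 1.12% and 0.489% of promoters of all genes tested. ESPL1, the separase that cuts cohesin, had 32.1 and 31.3 CPM at 24 h, against 68.1 and 68.4 CPM at 1 h (log2 -1.11 ± 0.052), and GINS2 had 3.04 and 2.87 CPM at 24 h, against 16.5 and 17.2 CPM at 1 h.

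The G1 machinery moved less uniformly. Of 17 G1 cyclins, CDKs and inhibitors tested, 10 fell and 3 rose (median -0.26). CDK2, the S phase kinase, had 51.7 and 51.6 CPM at 24 h, against 104 and 96.0 CPM at 1 h (log2 -0.95 ± 0.046). CDK4 fell by 0.45 ± 0.038 and the CDK4 inhibitor gene CDKN2C by 1.08 ± 0.062. The pocket protein genes split: RBL2, found in resting cells, rose by 0.38 ± 0.036 and RBL1 fell by 0.83 ± 0.094. CDKN1A, which encodes the inhibitor p21, had 286 and 276 CPM at 24 h, against 338 and 335 CPM at 1 h (log2 -0.26 ± 0.031). CDKN1C, a further inhibitor gene, rose by 0.33 ± 0.073. None of 27 p53 targets passed as higher and 12 passed as lower (median -0.17), although 1 to 4 passed as higher under 7 of the alternative settings. GDF15, a secreted stress factor, fell by 0.52 ± 0.039. Of 12 replication-dependent histone genes tested, 5 rose and 1 fell (median 0.48), and 3 rose without 24 h replicate 1. The linker histone gene H1-2 had 150.02 and 156 CPM at 24 h, against 85.7 and 87.1 CPM at 1 h (log2 0.83 ± 0.039).

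Cohesin, the ring that folds chromatin into loops, is loaded by NIPBL with MAU2. NIPBL had 121 and 124 CPM at 24 h, against 89.7 and 88.1 CPM at 1 h (log2 0.46 ± 0.040, adjusted p = 2.27e-14), and MAU2 had 133 and 129.7 CPM at 24 h, against 112 and 111 CPM at 1 h (log2 0.24 ± 0.038). Scaled over all 6 libraries, NIPBL had 108.4 and 105.4 CPM at 0 h and 88.9 and 87.4 CPM at 1 h. At 24 h NIPBL had 120.3 and 122.7 CPM on that scale. The late rise of NIPBL thus started from a lowered 1 h level and ended above the 0 h level. The ring subunits SMC1A and SMC3 fell by 0.49 ± 0.034 and 0.28 ± 0.038. The larger falls were in cohesin regulators that act in S phase and mitosis. ESCO2, an acetyltransferase that locks cohesin on replicating DNA, had 7.75 and 8.04 CPM at 24 h, against 31.5 and 33.8 CPM at 1 h (log2 -2.05 ± 0.085). CDCA5, the cohesion protector sororin, had 15.6 and 15.4 CPM at 24 h, against 46.2 and 49.2 CPM at 1 h (log2 -1.62 ± 0.068). PTTG1, the separase inhibitor securin, fell by 0.66 ± 0.053. Of 18 genes on the list 5 rose and 7 fell (median 0.016), and 3 rose without 1 h replicate 2. The shares of this list were 27.8% higher and 38.9% lower, where 22.0% and 25.8% of all genes tested were. All values here are mRNA levels, and cohesin on chromatin was not measured in these libraries.

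Cholesterol synthesis and uptake fell as a block. Of 28 genes tested 23 were lower and 3 higher (median -0.66), and 23 were lower under every alternative setting. The summed level was 1857 and 1845 CPM at 24 h, against 2837 and 2820 CPM at 1 h. HMGCS1, which makes HMG-CoA for the pathway, had 106 and 107 CPM at 24 h, against 229 and 235 CPM at 1 h (log2 -1.13 ± 0.036). SQLE, the squalene epoxidase, fell by 1.20 ± 0.048, ACAT2, which condenses acetyl-CoA, by 1.45 ± 0.066, and MSMO1, a later step, by 0.97 ± 0.041. INSIG1, a target of SREBP2 that holds the pathway in check, fell by 1.26 ± 0.056, while SREBF2, the gene of SREBP2 itself, changed by -0.12 ± 0.031 (adjusted p = 0.000578). The exporter ABCA1 went the other way, with 11.5 and 9.17 CPM at 24 h, against 4.82 and 5.10 CPM at 1 h (log2 1.06 ± 0.13). The other 2 rises, LSS and ABCG1, were lost when single libraries were left out: the adjusted p reached 0.367 for LSS without 1 h replicate 2 and 0.189 for ABCG1 without 24 h replicate 2.

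Fatty acid synthesis was more mixed, and of 14 genes 6 fell and 3 rose (median -0.03). ACLY, ELOVL6 and SCD, which supply acetyl-CoA, lengthen and desaturate fatty acids, fell by 0.40 ± 0.032, 0.44 ± 0.043 and 0.28 ± 0.037. Scaled over all 6 libraries, SCD had 136 and 133 CPM at 0 h, 167 and 158 CPM at 1 h and 135 and 133 CPM at 24 h. The late fall of SCD thus brought a raised 1 h level back to the 0 h level. PNPLA3, a lipid droplet hydrolase, rose by 1.15 ± 0.14 and LPIN1, a phosphatidate phosphatase, by 0.36 ± 0.035.

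Genes of protein folding in the endoplasmic reticulum fell. Of 20 unfolded protein response genes 17 were lower and 2 higher (median -0.46), and their sum was 7406 and 7625 CPM at 24 h, against 10431 and 10446 CPM at 1 h. HSPA5, the central chaperone BiP, had 958 and 984 CPM at 24 h, against 1496 and 1484 CPM at 1 h (log2 -0.62 ± 0.026). The disulfide isomerase PDIA4 had 285 and 289 CPM at 24 h, against 567 and 574 CPM at 1 h (log2 -0.99 ± 0.029). The cochaperone gene SDF2L1 fell by 1.29 ± 0.055, the secreted factor MANF by 0.97 ± 0.036 and the transducer XBP1 by 0.53 ± 0.038. The sensor ERN1 and the degradation gene EDEM1 rose by 0.40 ± 0.070 and 0.32 ± 0.043.

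ATF4 targets, which supply amino acids and one-carbon units, fell alongside. Of 27 tested, 21 were lower and 1 higher (median -0.43). PSAT1, an enzyme of serine synthesis, had 21.5 and 20.01 CPM at 24 h, against 68.2 and 64.97 CPM at 1 h (log2 -1.68 ± 0.059), and PHGDH, the step before it, fell by 1.01 ± 0.050. MTHFD2, a mitochondrial folate enzyme, fell by 1.27 ± 0.048, the asparagine synthetase ASNS by 1.13 ± 0.058 and the amino acid transporter SLC7A5 by 0.75 ± 0.052. The stress gene NUPR1 rose by 0.48 ± 0.035. ATF4 mRNA had 414 and 409 CPM at 24 h, against 399 and 395 CPM at 1 h (log2 0.05, adjusted p = 0.146), and passed as higher without 24 h replicate 2 (adjusted p = 0.039). Leaving out 24 h replicate 1 or 2 gave 2 rises on the list.

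Chaperones of the cytosol and mitochondria, and genes of ribosome assembly, also fell. Of 20 heat shock chaperones 13 were lower and 2 higher (median -0.26). HSPD1, the mitochondrial chaperonin, had 654 and 680.2 CPM at 24 h, against 1219 and 1220.3 CPM at 1 h (log2 -0.87 ± 0.027), and HSPA8 fell by 0.46 ± 0.026. The small heat shock genes CRYAB and HSPB8 rose by 1.80 ± 0.17 and 0.96 ± 0.071. Of 31 MYC targets and ribosome biogenesis genes 22 fell and 3 rose (median -0.31). NCL, the nucleolar protein nucleolin, had 698 and 747 CPM at 24 h, against 1059 and 1079 CPM at 1 h (log2 -0.57 ± 0.028), and the nucleolar genes NOLC1 and NOP56 fell by 0.73 ± 0.032 and 0.62 ± 0.032. MYC itself, the factor these genes follow in many cells, had 162 and 158 CPM at 24 h, against 128 and 126 CPM at 1 h (log2 0.33 ± 0.037). Scaled over all 6 libraries, MYC had 197 and 186 CPM at 0 h, 127 and 125 CPM at 1 h and 161 and 156 CPM at 24 h. Its late rise thus started from a lowered 1 h level and stayed under the 0 h level. Of 30 hypoxia and glycolysis genes 11 fell and 5 rose (median -0.06), with the lactate dehydrogenase LDHA at -0.78 ± 0.031, the hexokinase HK2 at -0.89 ± 0.055 and the mitophagy receptor BNIP3L at 0.59 ± 0.043. The 13 mitochondrially encoded mRNAs summed to 72097 and 69101 CPM at 24 h, against 77451 and 75633 CPM at 1 h. 10 of the 13 passed as lower and none as higher (median -0.14), but with an offset for GC content and length 3 passed as higher and 5 as lower.

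The immediate early genes FOS, FOSB and EGR1 did not pass the test between 24 h and 1 h, although they stood much higher at 0 h. FOS, an AP-1 subunit, had 417 and 396 CPM at 0 h, 8.85 and 8.16 CPM at 1 h and 9.42 and 8.32 CPM at 24 h, scaled over all 6 libraries. FOSB had 381 and 379.8 CPM at 0 h, 3.54 and 3.28 CPM at 1 h and 3.03 and 3.28 CPM at 24 h. EGR1, a zinc finger factor of the same early response, had 427 and 407 CPM at 0 h, 21.9 and 22.4 CPM at 1 h and 23.4 and 24.9 CPM at 24 h. In each of these the 0 h level stood apart, and the 1 h and 24 h levels lay together. Between 24 h and 1 h the log2 fold change was 0.06 ± 0.12 for FOS (adjusted p = 0.73), -0.12 ± 0.18 for FOSB (adjusted p = 0.634) and 0.12 ± 0.073 for EGR1 (adjusted p = 0.18). The direct comparison leaves the 0 h level of these genes out.

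Other early genes did move late. ATF3, a stress-induced bZIP factor, had 159 and 160.2 CPM at 0 h, 38.2 and 37.8 CPM at 1 h and 26.8 and 25.3 CPM at 24 h, and fell by 0.55 ± 0.064 between 1 h and 24 h. KLF4, a zinc finger factor, had 41.7 and 39.7 CPM at 0 h, 22.9 and 24.5 CPM at 1 h and 45.4 and 46.6 CPM at 24 h (late log2 0.95 ± 0.062). KLF6 had 66.8 and 66.0 CPM at 0 h, 41.4 and 40.6 CPM at 1 h and 66.2 and 64.9 CPM at 24 h. Both KLF genes were thus lower at 1 h than at the times on either side. FOSL2, an AP-1 subunit of slower kinetics, had 72.8 and 73.9 CPM at 0 h, 90.3 and 89.5 CPM at 1 h and 163 and 161 CPM at 24 h (late log2 0.85 ± 0.038). NR4A1, an orphan nuclear receptor, fell by 0.24 ± 0.060 late, a call lost without 1 h replicate 2 (adjusted p = 0.0589). By list, 1 of 8 AP-1 factors rose and 4 fell (median -0.13), and most of these falls lost their call without 1 h replicate 2. Of 22 EGR, NR4A and other activity-response factors 6 rose and 7 fell (median -0.06). The shares of that list, 27.3% higher and 31.8% lower, lay near the 22.0% and 25.8% over all genes tested. Its counts thus mark nothing particular about the list.

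The 0 h levels also sort the late changes by when they began. SPDEF had 42.7 and 39.7 CPM at 0 h, 31.6 and 32.8 CPM at 1 h and 2.29 and 1.82 CPM at 24 h, so most of its fall lay in the late window. RRM2 had 193 and 197 CPM at 0 h, 203 and 192 CPM at 1 h and 36.2 and 37.5 CPM at 24 h. NRCAM had 23.7 and 24.9 CPM at 0 h, 22.3 and 20.4 CPM at 1 h and 161 and 171 CPM at 24 h. For RRM2 and NRCAM the change thus lay in the late window alone as far as these levels show. SMOC1 had 695 and 695 CPM at 0 h, 825 and 843 CPM at 1 h and 155 and 162 CPM at 24 h, and HMGCS1 had 189.8 and 202 CPM at 0 h, 227 and 233 CPM at 1 h and 105.1 and 106 CPM at 24 h. DDIT4, an inhibitor of mTORC1 signalling, had 10.4 and 11.1 CPM at 0 h, 28.9 and 26.7 CPM at 1 h and 17.0 and 14.9 CPM at 24 h. ID3, an inhibitor of basic helix-loop-helix factors, had 419 and 433 CPM at 0 h, 689 and 693 CPM at 1 h and 481 and 451 CPM at 24 h. These 4 genes stood highest at 1 h, so their late falls start from a raised level.

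**Figure D5:**
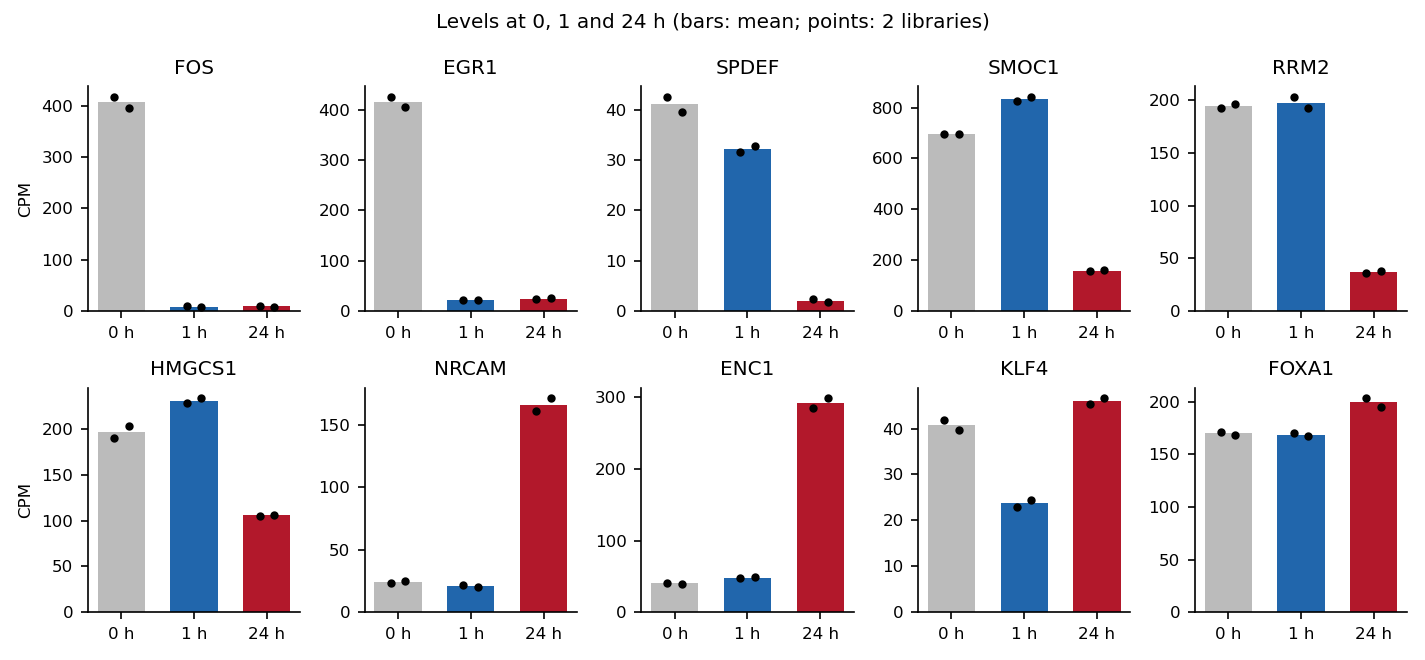
Levels of 10 genes at 0, 1 and 24 h in CPM scaled over 6 libraries; bars are means and points the 2 libraries of each time. FOS and EGR1 are high at 0 h alone, SPDEF, SMOC1, RRM2 and HMGCS1 are lowest at 24 h, and NRCAM, ENC1, KLF4 and FOXA1 are highest at 24 h.

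Signalling lists moved in part, where 22.0% of all genes tested were higher and 25.8% lower. For TGF-beta and BMP genes the shares were 31.8% and 27.3%. These lay near the shares over all genes, so their counts mark nothing particular about the list. Of 16 MAPK feedback genes 7 rose and 3 fell (median 0.19): the EGFR inhibitor gene ERRFI1 had 542 and 545 CPM at 24 h, against 312 and 318 CPM at 1 h (log2 0.79 ± 0.029), SPRY1 rose by 1.01 ± 0.10, and the receptor gene EPHA2 fell by 1.04 ± 0.079. Of 13 glucocorticoid and stress kinase responsive genes 8 rose and 1, DDIT4 (-0.81 ± 0.078), fell (median 0.21). Of 19 clock genes 10 rose (median 0.24), among them the PAR bZIP factor gene DBP with 33.2 and 29.7 CPM at 24 h, against 22.3 and 23.2 CPM at 1 h (log2 0.47 ± 0.070). The single fall among clock genes, PER2, was lost without 24 h replicate 2 (adjusted p = 0.0855) or 1 h replicate 1 (0.0543). Of 22 TGF-beta and BMP genes 7 rose and 6 fell (median 0.059), with the ligands moving apart: TGFB3 had 56.6 and 58.4 CPM at 24 h, against 16.4 and 16.3 CPM at 1 h (log2 1.81 ± 0.063), and TGFB2 had 7.75 and 7.64 CPM at 24 h, against 35.1 and 38.8 CPM at 1 h (log2 -2.26 ± 0.084). Of 12 epithelial-mesenchymal transition genes 6 fell and 3 rose (median -0.45), and 1 rose without 1 h replicate 2. VIM, the mesenchymal filament vimentin, had 7.41 and 6.84 CPM at 24 h, against 16.6 and 15.9 CPM at 1 h (log2 -1.19 ± 0.10), and the factor TWIST1 rose by 0.85 ± 0.072.

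The remaining lists held calls in both directions, where 22.0% of all genes tested were higher and 25.8% lower. Interferon-stimulated genes, at 23.8% higher and 33.3% lower, lay near those shares, so their counts mark nothing particular about the pathway. Of 21 interferon-stimulated genes 7 fell and 5 rose (median -0.10), and 3 rose when 24 h replicate 1, 24 h replicate 2 or 1 h replicate 2 was left out. OAS3, an antiviral oligoadenylate synthetase, had 3.32 and 2.81 CPM at 24 h, against 16.5 and 16.0 CPM at 1 h (log2 -2.40 ± 0.12). Of 16 Wnt inhibitors and beta-catenin targets 7 rose and 3 fell (median 0.14), with 3 rises without 1 h replicate 1. The Wnt inhibitor WIF1 rose by 1.17 ± 0.11 and the beta-catenin partner LEF1 fell by 1.26 ± 0.084. Of 20 NRF2 antioxidant genes 9 fell and 5 rose (median 0.074), with the thioredoxin gene TXN at -0.73 ± 0.040 and the cystine transporter SLC7A11 at -0.80 ± 0.085. Of 12 NF-kB targets 3 rose and 1 fell (median 0.016), and 2 fell without 24 h replicate 2. Of 9 glucose-sensing and nutrient genes 6 rose and 2 fell (median 0.21), among them the mitochondrial kinase gene PDK4 with a rise of 0.28 ± 0.025 and the lipase inhibitor gene ANGPTL4 with a fall of 0.80 ± 0.048. Of 5 HNF and ONECUT factors tested 2 rose and 2 fell, with HNF4G at -1.08 ± 0.100 and NR5A2, listed with them, at 0.90 ± 0.13.

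The late changes were set beside experiments that share no library with them. In shFOXA1 against shCtrl, 23.6% of 19128 genes were called (11.3% higher and 12.3% lower). Of the 758 genes that fell at least 2-fold late, 684 were tested there, and 259 were lower and 39 higher in shFOXA1 (37.9% and 5.70%). These 259 are 11.0% of the 2350 genes lower in shFOXA1. Of the 622 that rose at least 2-fold, 390 were tested, and 73 were higher and 23 lower. In R219S against WT, 62.1% of 13990 genes were called (30.5% higher and 31.6% lower). Of the late falls 533 were tested there, and 349 were lower and 64 higher in R219S (65.5% and 12.0%), and these 349 are 7.90% of the 4416 genes lower in R219S. Of the late rises 263 were tested, and 133 were higher and 47 lower. No test of these overlaps was made, and the tables were normalized separately.

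By group the 3 experiments gave different counts. Replication genes were lower in shFOXA1 in 35 of 37 tested (median -0.46), against 37 of 37 late (median -1.56), while in R219S 18 were lower and 5 higher (median -0.13). Cholesterol genes were lower in shFOXA1 in 21 and higher in none (median -0.57), and in R219S higher in 16 and lower in 3 (median 0.15). Androgen-responsive genes ran 10 higher and 4 lower in shFOXA1 (median 0.20) and 6 higher and 22 lower of 30 in R219S (median -0.90). Values of single genes also stood apart. MAF was 2.75 ± 0.089 higher in shFOXA1 on the log2 scale, against its late fall of 1.65. SMOC1 was 2.31 ± 0.042 higher in R219S and 0.86 ± 0.22 lower in shFOXA1. TMPRSS2 was 4.89 ± 0.16 lower in R219S and KLK3 2.52 ± 0.11 lower, against late rises of 0.52 and 0.20. In shFOXA1 both had positive log2 values, 0.78 ± 0.20 for KLK3 (called higher, adjusted p = 0.0292) and 2.21 ± 0.40 for TMPRSS2 (not called, adjusted p = 0.0660). NRCAM was higher in both, by 1.86 ± 0.30 in shFOXA1 and 2.04 ± 0.071 in R219S. The other rises among the 5 with the smallest adjusted p differed in shFOXA1. ENC1 and SCGN were called lower there (-0.61 ± 0.097 and -0.85 ± 0.19), and LPL (-0.16) and EFNB2 (0.32) were not called. In R219S all of these were called higher: ENC1 by 1.34, SCGN by 2.33, LPL by 1.15 and EFNB2 by 0.18. UGT2B15 was lower in R219S (-10.05 ± 0.64) but not called in shFOXA1 (-0.06, adjusted p = 0.721). SPDEF was lower in R219S (-1.61 ± 0.041) and not called in shFOXA1 (-0.31, adjusted p = 0.556). The difference between experiments was not tested, and FOXA1 mRNA itself was 0.47 ± 0.062 lower in shFOXA1 and 0.57 ± 0.036 lower in R219S.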

How the data were processed

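The authors deposited raw counts, whole numbers of reads per gene with no normalization. STAR, featureCounts, DESeq2 and hg19 appear in the submitters' processing notes, and the deposited counts were used unchanged; versions, annotation and strand setting are not given in the sources used here, so reads of a gene and its antisense partner cannot be told apart. The 24 h and 1 h libraries came from 2 tables of 57905 features joined by Ensembl identifier, of which 52338 had a symbol; their 0 h counts were identical at all 57905. Per-sample columns not used numbered 0.

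Genes were tested on the 4 libraries in R 4.3.3 with edgeR 4.0.16 (low genes removed by filterByExpr, TMM, estimateDisp, robust glmQLFit, quasi-likelihood F test), with Benjamini-Hochberg adjustment over all genes tested. Standard errors are approximate: the size of the log2 fold change divided by the root of F. The procedure was tested on simulated counts. shFOXA1 against shCtrl and R219S against WT were fitted the same way on their own tables, with R219S matched by symbol. Exact 95% intervals of count ratios cover counting error only. Alternatives were other normalizations and filters, DESeq2 1.42.0, limma 3.58.1, leaving out each library, the replicate block, a joint fit of 6 libraries and a GC content and length offset. Promoters are RefSeq's on GRCh38.p14 and were matched by symbol to 12487 of the tested genes.

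The members and the 36 gene lists were chosen with earlier results of these data known. Named genes are the 15 largest rises and falls (adjusted p under 0.05, a mean of at least 2 CPM in the higher group, a symbol, no overlap of groups), the 5 smallest adjusted p in each direction, up to 6 called members per list with the smallest adjusted p and up to 5 that go against the rest, and FOXA1, NIPBL and defining markers. Other named genes, among them SLC45A3, KLK2, MKI67, CCNB1, E2F1, SMC3, XBP1 and YAP1, were chosen after their values were seen. Some genes that the rule picks are not reported here.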

Additional observations from a re-analysis of the deposited data

How the results depend on the processing

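The total of genes called was 9304, and 7248 to 8313 with 1 library left out, 6428 in DESeq2 and 8979 to 9523 under the other settings. In DESeq2 2765 genes were called higher, 350 of them at least 2-fold, and with at least 1 CPM in at least 2 libraries 381 were at least 2-fold higher; the cause was not tested. The share of calls that were higher was 46.1%, and 43.0% to 54.1% over the settings. FOS, not called, ran from -0.0388 (without 24 h replicate 1) to 0.139 with 1 library left out, and was -0.0065 without 1 h replicate 2. The replicate numbers are only shared labels: deviations of same-numbered libraries from their group means correlated at r = 0.026 over 10825 genes. With the replicate block 9523 genes were called and no call of a named gene changed; with the block and the GC content and length offset together there were 9494. That offset reversed 15 calls among all genes. Over all named genes and settings, 4519 values kept their direction and side of the threshold, 122 lost the call, 8 gained it and 2 changed sign. With 2 libraries per group, small changes of genes with few counts were not detectable at this depth.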

Other observations

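Some further gene groups were listed after their values were seen, so their counts are descriptions and support nothing. Of 31 homologous recombination and Fanconi anaemia genes 23 fell, 14 of them at least 2-fold, and 3 rose (median log2 -0.71). BRCA1, a repair factor of double-strand breaks, had 14.6 and 13.3 CPM at 24 h, against 45.3 and 45.1 CPM at 1 h (log2 -1.70 ± 0.070), and BRCA2 had 4.64 and 5.04 CPM at 24 h, against 13.8 and 13.2 CPM at 1 h (log2 -1.48 ± 0.12). The nuclease EXO1 fell by 2.32 ± 0.096 and the helicase BRIP1 by 1.92 ± 0.10. ATM, the kinase that senses double-strand breaks, went the other way, with 52.0 and 54.0 CPM at 24 h, against 38.2 and 38.7 CPM at 1 h (log2 0.46 ± 0.054).

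Of 38 ephrins, Eph receptors, Slits, semaphorins and their receptors tested, 21 rose and 8 fell (median 0.27). Beside NRCAM, SLIT2 and EFNB2, the Slit receptor ROBO2 rose by 1.75 ± 0.25, the netrin receptor UNC5B by 1.21 ± 0.048 and the semaphorin receptor PLXNB1 by 0.95 ± 0.034. ROBO1, which also binds Slits, had 61.3 and 61.3 CPM at 24 h, against 122 and 124 CPM at 1 h (log2 -1.0 ± 0.042). EPHA7 had 7.84 and 7.91 CPM at 24 h, against 57.8 and 59.9 CPM at 1 h (log2 -2.90 ± 0.073). The paralogs ROBO1 and ROBO2 thus moved in opposite directions. Of 32 lysosome and autophagy genes 17 rose and 6 fell (median 0.12), with the membrane glycoprotein GPNMB at 688 and 695 CPM at 24 h, against 305 and 306 CPM at 1 h (log2 1.18 ± 0.029), and TFEB, a master factor of lysosome genes, at 102 and 94.9 CPM at 24 h, against 53.1 and 56.7 CPM at 1 h (log2 0.85 ± 0.046). Of 5 HLA class II genes tested 2 fell and none rose (the HLA-DQB pair above).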
